A study of Mus musculus with 12 samples.

Results

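The late blastocyst is the last stage of free-floating mouse development before implantation, and 4 RNA-seq libraries of it are described here, of 12 libraries in the whole study. They come from CD1 embryos, an outbred mouse stock. As zygotes these embryos had received either an siRNA against Tdgf1 (2 libraries, numbered 1 and 2) or a negative control siRNA (2 libraries, numbered 1 and 2), in every case with GFP mRNA as an injection marker, so the controls are injected embryos too. The other 8 libraries are morulae and early blastocysts with the same 2 treatments, 2 libraries each, and serve here to estimate the spread and to compare stages. The comparison covers the 10927 of 43472 genes in the deposited table whose mean over the 4 late blastocyst libraries reached 1 in the deposited unit, which is 3.58 counts per 1000000 reads (CPM). The last gene inside this limit had a mean of 3.583 CPM and the first outside one of 3.580 CPM. Nothing in the labels says whether libraries 1 and 2 came from separate embryos, litters or injection days, nor how many embryos each holds, so p-values here reflect library-to-library spread alone, which may be technical.

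Tdgf1 encodes Cripto, a small membrane-anchored protein that lets Nodal and related ligands of the TGF-beta family signal through activin receptors to SMAD2 and SMAD3. In the late blastocyst the inner cells are dividing their fates between epiblast, which will form the embryo proper, and primitive endoderm, which will line the yolk sac, while the trophectoderm outside prepares for implantation. An siRNA lowers its target by guiding cleavage of the mRNA, so a knockdown is partial and wears off as the embryo grows. The study's title places Tdgf1 in the second lineage choice of the embryo, that between epiblast and primitive endoderm.

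The 4 libraries held 10908928 to 12964712 reads in genes, and 3 reads, the most that a count of 0 allows, correspond to 0.231 to 0.275 CPM. Only counting error enters this limit. The 2 libraries numbered 1 detected more genes (24374 with Tdgf1 siRNA and 23983 in control) than those numbered 2 (22008 and 21485). Correlations of log2 levels between the 4 libraries lay between 0.978 and 0.984 over the genes tested. The lowest was between the 2 Tdgf1 siRNA libraries, so a library of the other treatment resembled each of them more than its own replicate did. Defining markers of all 3 blastocyst lineages were present in every library: Nanog and Pou5f1 for epiblast, Gata6 and Pdgfra for primitive endoderm, and Cdx2, Gata3 and Krt8 for trophectoderm. Both Xist and Y-linked genes such as Ddx3y were read in each library, so each held RNA of both sexes.

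Tdgf1 itself stood lower after Tdgf1 siRNA in both same-numbered pairs, but well above 0. It is annotated on the minus strand of chromosome 9, from 110939603 to 110946158 (GRCm38). Its level was 49.5 and 70.8 CPM in Tdgf1 siRNA libraries 1 and 2 against 97.3 and 84.6 CPM in controls 1 and 2. Both siRNA values lay below both control values, and library 1 was much the lower. The log2 change was -0.59 (SE 0.275, n = 2 a group), with -0.93 in pair 1 and -0.25 in pair 2. It did not pass over all genes in limma (unadjusted p = 0.0519, adjusted p = 1.0). An exact two-sided permutation of the 4 libraries gave p = 0.333, the smallest that 6 assignments can give.

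Among the other genes of the Nodal pathway, none passed the test and few stood apart. Of the 27 listed, 17 were tested, 2 lay wholly lower (Tdgf1 and the ligand Gdf3, 28.5 and 29.7 against 32.1 and 32.3 CPM) and 2 wholly higher. These were Smad3, a signal transducer of the pathway (12.6 and 9.71 against 9.17 and 6.40 CPM), and Smad7, its feedback inhibitor (22.2 and 23.3 against 20.5 and 13.0 CPM). Over all genes tested, 14.2% lay wholly lower and 17.5% wholly higher with Tdgf1 siRNA. The list's median log2 change was 0.05, against 0.01 for all genes. Nodal was at the edge of detection, with 1.05 and 1.94 CPM in siRNA libraries and 0.917 and 0.463 CPM in controls. Its target Lefty1 was similarly low (0.262 and 2.21 against 0.917 and 0.694 CPM). Lefty2, another target and inhibitor of Nodal, was listed at 0 and 11.7 CPM in siRNA libraries 1 and 2 and at 2.93 and 1.31 CPM in controls 1 and 2, so its siRNA libraries enclosed the controls. Cfc1, the relative of Cripto that can serve the same receptors, stood at 18.7 and 32.9 against 21.8 and 23.5 CPM and overlapped.

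No gene passed limma's test between Tdgf1 siRNA and control late blastocysts at an adjusted p of 0.05 (0 of 10927, 0%). At an unadjusted p under 0.05 there were 253 genes, 159 of them higher (1.46% of those tested) and 94 lower (0.86%). Together these are fewer than a threshold of 0.05 would give if no gene differed. The smallest adjusted p was 0.403, for Cd200, a gene near 0 at the earlier stages, which also entered the estimate of its spread. edgeR's quasi-likelihood test on recovered whole reads also gave 0 (195 unadjusted). DESeq2 gave 1 gene, Asns (log2 change -1.12, adjusted p = 0.0451), which is 0.00915% of genes. With the replicate numbers as a block, limma gave 4 genes (0.0366%), each with an adjusted p of 0.0342: Asns and Cd200 were lower, and Epas1 and Pmm1 were higher. edgeR with the same block gave 0. The pairing behind that fit is uncertain at this stage, as the deviations of same-numbered libraries correlated at only 0.1005.

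The 2 same-numbered pairs shared little across genes as a whole. The log2 difference of Tdgf1 siRNA minus control in pair 1 and in pair 2 had a Pearson correlation of -0.00 and a Spearman correlation of -0.02 over the 10927 genes, as a description, since genes are not independent replicates. The 2 pairs have no library in common. The sign was the same for 48.6% of genes. The spread of these differences (SD 0.32 in pair 1 and 0.30 in pair 2) was about that between the 2 controls (0.30) and between the 2 siRNA libraries (0.35). The difference was below 0 in both pairs for 21.4% of genes and above 0 in both for 27.2%. Changes of more than 1 on the log2 scale were found for 7 genes in the higher and 16 in the lower direction. Against this background a few groups of genes leaned the same way in both pairs.

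**Figure D1:**
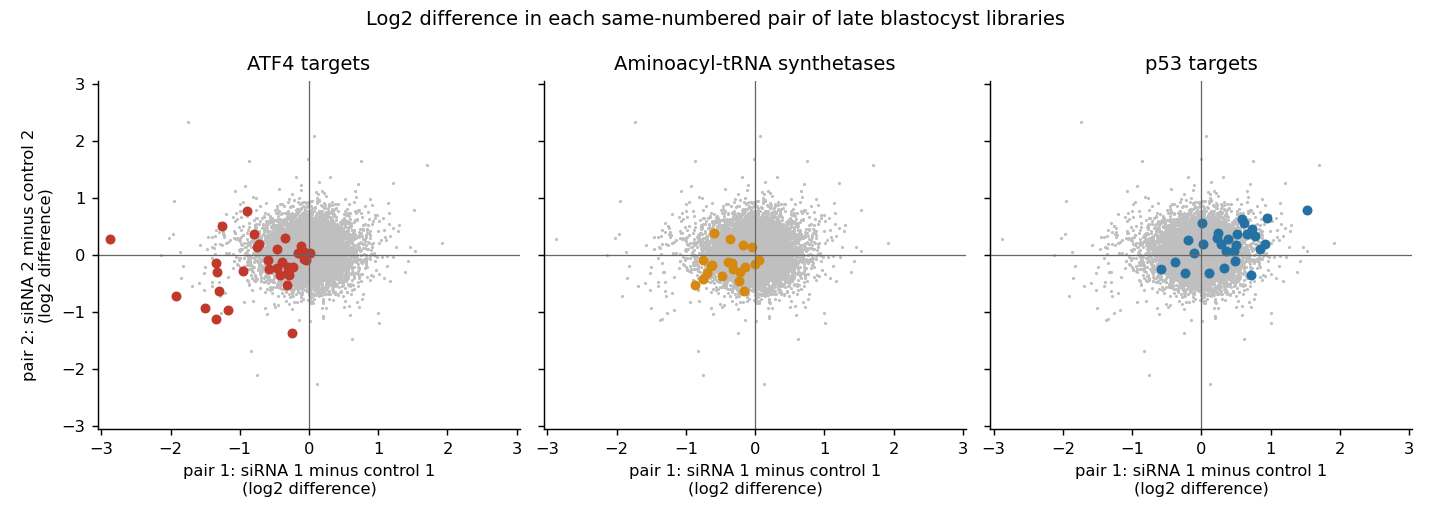
Log2 difference of Tdgf1 siRNA minus control in pair 1 (horizontal) against pair 2 (vertical), 1 point a gene, with all 10927 genes tested in grey and the members of 3 lists in colour, values beyond 3 being drawn at 3. The grey cloud has no slope, 21 of 34 ATF4 targets and 15 of 20 tRNA synthetases lie at the lower left, and 19 of 28 p53 targets at the upper right.

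The targets of ATF4 stood lower as a list. ATF4 is a transcription factor whose mRNA is translated more when cells lack amino acids or when the endoplasmic reticulum or mitochondria are stressed. It then switches on amino acid synthesis, amino acid uptake and tRNA charging. Of 34 targets tested (40 listed), 32 had a log2 change below 0, where 47.1% of all genes did. In 16 both siRNA libraries lay below both controls, in 0 above, where 14.2% and 17.5% of all genes did. The median log2 change was -0.31 against 0.01 for all genes, -0.47 in pair 1 and -0.12 in pair 2. No member passed limma's test over all genes without the block. In that test 8 were lower at an unadjusted p under 0.05, where 0.86% of all genes were. Asns passed in DESeq2 and in limma with the replicate block, as given above, and Nupr1 in limma without Tdgf1 siRNA replicate 2 (adjusted p = 0.0103). Without the 5 members that earlier results had already named, 27 of 29 were below 0, with a median of -0.26. The list itself was chosen with earlier results of these data known, so this is no independent check.

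Several members are enzymes of amino acid and folate metabolism. Asns, asparagine synthetase (chromosome 6, 7675169 to 7693254, minus strand), stood at 64.2 and 83.5 CPM with Tdgf1 siRNA against 149 and 166 CPM in controls. Its groups were far apart compared with their own spread (log2 change -1.07, SE 0.205, limma adjusted p = 0.791). Pycr1, the last enzyme of proline synthesis, stood at 4.63 and 10.3 against 27.4 and 19.1 CPM. Aldh18a1, which makes the precursor of proline, stood at 13.7 and 28.9 against 40.1 and 36.0 CPM. For both genes siRNA library 1 was the lowest of the 4. Mthfd2, a mitochondrial enzyme of folate-bound one-carbon units, stood at 38.8 and 61.2 against 101 and 97.0 CPM. The serine enzymes differed less: Phgdh, which opens the pathway, stood at 121 and 120 against 150 and 155 CPM, and Psph, which closes it, at 36.7 and 44.8 against 50.6 and 58.2 CPM. Psat1, the step between them, overlapped (242 and 182 against 299 and 211 CPM).

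Other members are regulators and stress genes. Trib3, a pseudokinase that restrains ATF4, stood at 10.5 and 15.6 against 32.1 and 37.9 CPM (log2 change -1.23, SE 0.302). Herpud1, which helps clear proteins from the endoplasmic reticulum, stood at 19.4 and 31.0 against 61.6 and 61.8 CPM (log2 change -1.21, SE 0.253). In these genes the 2 controls lay close together and both siRNA libraries lay below them. Ddit3, the stress factor CHOP, stood at 72.5 and 69.3 against 90.9 and 101 CPM. Chac1, which degrades glutathione, was low everywhere, at 2.36 and 1.85 against 3.48 and 10.3 CPM. The amino acid transporters Slc38a2 (47.7 and 85.9 against 95.6 and 104 CPM) and Slc3a2 (179 and 263 against 271 and 280 CPM) also lay wholly lower. Atf4 mRNA itself stood at 185 and 239 against 257 and 279 CPM (log2 change -0.34, SE 0.165). Nupr1 was at 1.66 and 31.3 against 34.9 and 25.2 CPM, so a single library was low and the groups overlapped. Other members did not separate at all: Atf5, Eif4ebp1, Ppp1r15a, Sesn2 and Slc7a5 had log2 changes between -0.06 and 0.02.

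**Figure D2:**
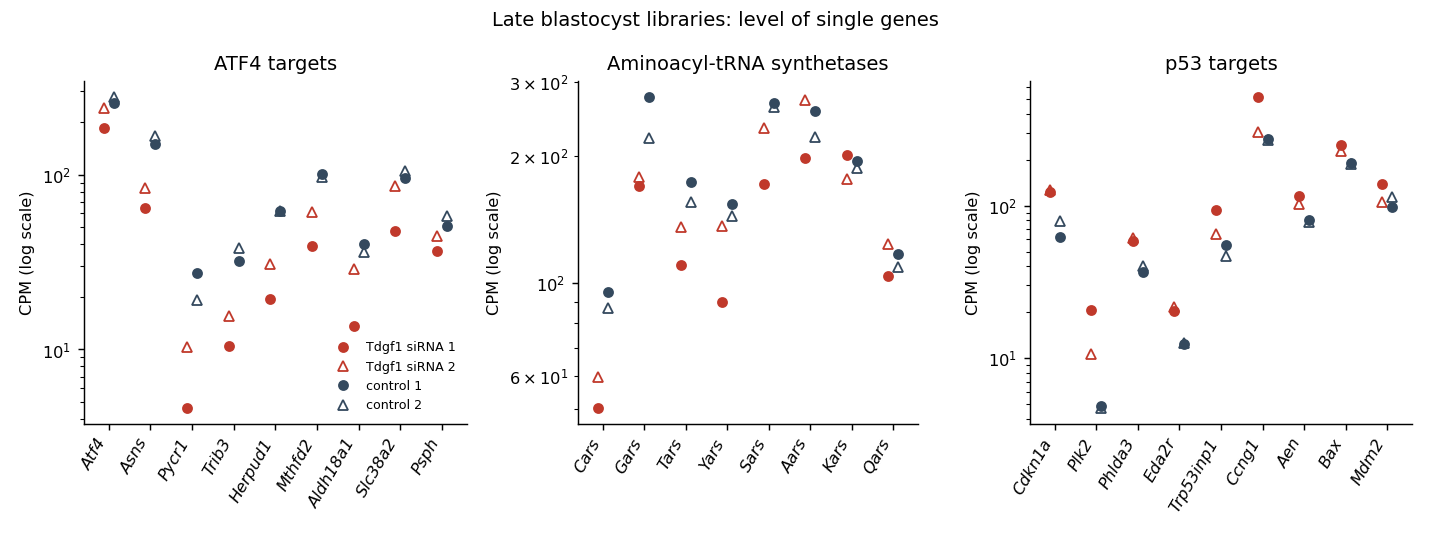
Level (CPM, log scale) of single genes in the 4 late blastocyst libraries, 1 symbol a library, filled for number 1 and open for number 2. In the ATF4 targets shown the 2 siRNA libraries lie below the 2 controls, in Aars, Kars, Qars and Mdm2 they overlap, and in the other p53 targets shown they lie above.

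To show the kind of site through which ATF4 is known to act, the promoters of these genes were searched for the letters TGATGNAA, the core of the C/EBP-ATF response element, on both strands (TTNCATCA on the other). The promoters are RefSeq's, 250 bases before to 50 bases after each annotated start (GRCm38.p6), and 29 of the 34 ATF4 targets had one. The motif was present for 8 of these 29 genes (27.6%), against 202 of 7964 genes tested that had a promoter in the table (2.54%). Over all 27025 genes with a promoter of that length it was present for 1219 (4.51%). As the list holds known ATF4 targets, a higher share may be built into it and is no result of these embryos. The following stretches, read 5′ to 3′ on the gene's strand, are those of the ATF4 targets that had the motif and lay wholly lower, with the motif in capitals and its flanks in lower case.
Asns (chr6:7693205-7693252, minus strand): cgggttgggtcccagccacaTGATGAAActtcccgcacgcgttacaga
Trib3 (chr2:152344019-152344066, minus strand): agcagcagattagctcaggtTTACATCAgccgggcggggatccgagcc
Herpud1 (chr8:94386297-94386344, plus strand): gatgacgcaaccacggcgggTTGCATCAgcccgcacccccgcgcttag
Pycr1 (chr11:120643824-120643871, minus strand): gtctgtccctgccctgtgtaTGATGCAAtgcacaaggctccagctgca
Chac1 (chr2:119351029-119351076, plus strand): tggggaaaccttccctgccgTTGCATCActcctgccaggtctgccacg
Jdp2 (chr12:85599363-85599410, plus strand): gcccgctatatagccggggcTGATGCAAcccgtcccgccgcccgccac

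The motif starts 23 bases before the RefSeq start of Asns and 14 bases after that of Trib3. The Asns gene as GENCODE annotates it begins further upstream, so the motif lies within it. Of the 8 targets with the motif, 6 lay wholly lower and all 8 were below 0, with a median log2 change of -1.14. The other 2 are Nupr1 and Vldlr, whose groups overlapped. Of the 21 targets without the motif in the window, 10 lay wholly lower and 20 were below 0, with a median of -0.30. The same split over all genes gave a median of -0.04 for the 202 genes with the motif and 0.01 for the 7762 without, and 23.8% and 14.4% lay wholly lower. The 202 include these 8 ATF4 targets and the 5 tRNA synthetases with the motif given below, so this split is not separate from those lists. These are descriptions with no test, and a match of letters is not a bound site.

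The cytosolic aminoacyl-tRNA synthetases, which load each amino acid onto its tRNA and many of which ATF4 also serves, stood lower as a family. All 20 were tested and 18 were below 0. In 14 both siRNA libraries lay below both controls, in 0 above, where 14.2% and 17.5% of all genes did. Lower in both pairs were 15, against 21.4% of all genes. The median log2 change was -0.27, with -0.35 in pair 1 and -0.18 in pair 2. In limma 7 members were lower at an unadjusted p under 0.05, where 0.86% of all genes were. Without Tdgf1 siRNA replicate 1 the median was -0.17. None passed over all genes in limma. Cars, for cysteine, was at the lower end, with 50.3 and 59.6 against 95.1 and 86.9 CPM (log2 change -0.70, SE 0.181). Gars, for glycine, stood at 170 and 178 against 278 and 222 CPM. Tars, for threonine, stood at 110 and 136 against 173 and 156 CPM, and Dars, for aspartate, at 196 and 162 against 220 and 251 CPM. In each of these genes the 2 groups were apart. The synthetases that overlapped were Vars, Hars, Aars, Kars, Qars and Farsa, with log2 changes of -0.11 to 0.05. For Aars the siRNA libraries (198 and 272 CPM) enclosed the controls (257 and 222 CPM).

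Among the synthetases, 12 had a promoter in the table and 5 of them held the motif (41.7%). Of these 5, 4 lay wholly lower, and the median was -0.42. Aars held it as well and overlapped. Of the 7 without it, 4 lay wholly lower and the median was -0.18. Shown for the wholly lower members are the stretches around the motif, again in capitals.
Gars (chr6:55037951-55037998, plus strand): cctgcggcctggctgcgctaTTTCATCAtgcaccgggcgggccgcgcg
Tars (chr15:11399646-11399693, minus strand): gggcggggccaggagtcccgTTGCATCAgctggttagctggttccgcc
Yars (chr4:129189886-129189933, plus strand): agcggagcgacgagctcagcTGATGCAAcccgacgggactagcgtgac
Iars (chr13:49682117-49682164, plus strand): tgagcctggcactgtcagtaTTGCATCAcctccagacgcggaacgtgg

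The mitochondrial synthetases, a separate set of enzymes encoded in the nucleus, did not lean as far. Of 17, 12 were below 0, 6 lay wholly lower (14.2% of all genes did) and 3 wholly higher (17.5%), and the median was -0.07. Fars2 stood lowest (19.6 and 24.6 against 29.7 and 34.5 CPM) and Sars2 highest (43.2 and 43.4 against 36.9 and 34.1 CPM). This list was added after the values of the cytosolic family had been seen.

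At the earlier stages the median log2 change of ATF4 targets was 0.02 at morula (16 of 34 below 0) and -0.05 at early blastocyst (21 of 34). That of the synthetases was below 0 at these stages too, -0.07 at morula (14 of 20 below 0) and -0.04 at early blastocyst (12 of 20). The difference between stages was not tested for the lists. In control embryos ATF4 targets were themselves higher at the late blastocyst. The median deviation of a member's log2 level from its mean over the 12 libraries was -0.29 and -0.30 in control morulae, -0.13 and -0.37 in control early blastocysts, and 0.71 and 0.80 in control late blastocysts. Late blastocysts with Tdgf1 siRNA reached 0.14 and 0.47, between the earlier stages and their controls. Asns ran from 20.2 and 24.1 CPM in control morulae and 29.0 and 28.2 CPM in control early blastocysts to the 149 and 166 CPM given above. The test of the difference between stages (late blastocyst minus the mean of morula and early blastocyst) passed for 0 of 10927 genes (0%), with 155 at an unadjusted p under 0.05. Of the ATF4 targets 7 were among these 155, and of the synthetases 4. For Asns that difference was -1.19 (limma, unadjusted p = 0.000333) and for Pycr1 -1.31 (unadjusted p = 0.00263).

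**Figure D3:**
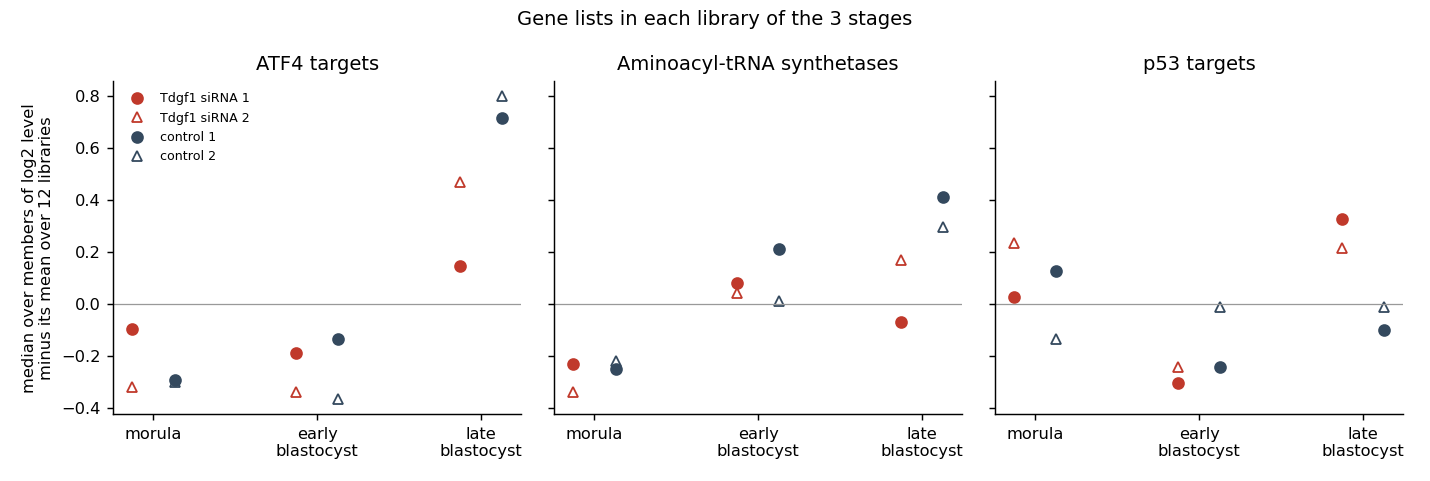
Median over the members of each list of the log2 level minus its mean over the 12 libraries, for every library of the 3 stages, siRNA in red and control in dark blue, filled for number 1 and open for number 2. At late blastocyst the control libraries of the ATF4 list sit at 0.71 and 0.80 and the siRNA libraries at 0.14 and 0.47, and the p53 list is ordered the other way.

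The size of this difference depended on 1 library. Without Tdgf1 siRNA replicate 1, 21 of 34 ATF4 targets were below 0 and the median was -0.15, and without Tdgf1 siRNA replicate 2 the counts were 31 of 34 and -0.53. Library 1 is also the one in which Tdgf1 was lower, and a relation to the Tdgf1 level was not tested. The same library stood somewhat apart in developmental position as well. Genes that were higher in early blastocysts than in morulae (390 of 393 so chosen were measured here) had a median deviation of 0.77 in siRNA library 1, against 0.97 in siRNA library 2, 0.98 in control 1 and 0.96 in control 2. Genes that were lower in early blastocysts (194 of 280) stood at -0.54 in siRNA library 1, -0.71 in siRNA library 2, -0.69 in control 1 and -0.84 in control 2. On both measures siRNA library 1 was nearest to the earlier stages, and the part of this in the results was not tested.

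Targets of p53 leaned the other way. p53 is a transcription factor that is stabilised by DNA damage and other stress and that switches on genes of cell cycle arrest and cell death. Of 28 targets tested (30 listed), 23 had a log2 change above 0, where 52.9% of all genes did. In 19 both siRNA libraries lay above both controls, and in 2 below, where 17.5% and 14.2% of all genes did. The median log2 change was 0.28, with 0.43 in pair 1 and 0.20 in pair 2. It ranged from 0.22 to 0.35 when each library was left out in turn. None passed over all genes in limma. In that test 4 were higher at an unadjusted p under 0.05, where 1.46% of all genes were.

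Cdkn1a, the cell cycle inhibitor p21, stood at 123 and 126 CPM with Tdgf1 siRNA against 62.2 and 78.8 CPM in controls (log2 change 0.80, SE 0.258, limma adjusted p = 1.0). The 2 siRNA libraries were nearly equal here. Phlda3, an inhibitor of AKT, stood at 58.4 and 61.7 against 36.9 and 40.3 CPM. Eda2r, a receptor of the TNF family, stood at 20.3 and 21.6 against 12.3 and 12.6 CPM. In both genes each group was tight and the groups were apart. Trp53inp1 (93.9 and 65.5 against 54.8 and 46.9 CPM), Ccng1 (519 and 307 against 274 and 269 CPM) and Plk2 (20.7 and 10.7 against 4.86 and 4.71 CPM) were highest in siRNA library 1. Aen, a nuclease of apoptosis, stood at 116 and 102 against 80.4 and 78.5 CPM. Trp53 mRNA itself stood at 50.6 and 59.3 against 42.9 and 47.7 CPM. Mdm2, the feedback inhibitor of p53, overlapped (138 and 106 against 97.5 and 115 CPM), and so did Perp and Pmaip1. The exceptions were Gdf15 (3.055 and 4.24 against 6.33 and 5.71 CPM) and Plk3 (16.0 and 16.7 against 19.4 and 21.4 CPM). Gdf15, Ddit4 and Sesn2 are also ATF4 targets and stand in both lists.

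The same direction was seen in regulators of apoptosis. Of 17 tested, 14 were above 0, with 6 wholly higher (17.5% of all genes were) and 1 wholly lower (14.2%). The median was 0.19, and 0.09 without control replicate 2. Bax, which opens the outer mitochondrial membrane, stood at 250 and 229 against 190 and 187 CPM. Bbc3, the initiator PUMA, stood at 12.7 and 6.80 against 5.50 and 6.09 CPM. Both are p53 targets and shared with that list. The survival genes Mcl1 (195 and 203 against 175 and 166 CPM) and Xiap (55.9 and 67.8 against 49.4 and 53.1 CPM) lay wholly higher as well, while Bcl2l1 overlapped. Cycs, cytochrome c, was the member that lay wholly lower (538 and 525 against 591 and 631 CPM). None passed over all genes.

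Nuclear genes of respiratory complexes I to III and of ATP synthase showed small differences, with list medians below 0 in both pairs. Over all genes, 14.2% lay wholly lower and 17.5% wholly higher. Of 44 genes named Nduf (complex I and its assembly factors), 41 were below 0 and 19 lay wholly lower against 1 wholly higher, with a median of -0.10, -0.12 in pair 1 and -0.14 in pair 2. Of 12 genes of complexes II and III, all 12 were below 0 and 8 lay wholly lower, with a median of -0.19. Of 17 ATP synthase genes 14 were below 0 and 7 lay wholly lower, with a median of -0.11. Complex IV leaned less, with 9 of 12 below 0, 2 wholly lower, 1 wholly higher and a median of -0.05 (-0.09 in pair 1 and 0.03 in pair 2). Ndufs1, a core subunit of complex I, stood at 116.7 and 133 against 171 and 158 CPM. Sdha, the flavoprotein of succinate dehydrogenase, stood at 157 and 163 against 197 and 199 CPM. Uqcrc1, a core subunit of complex III, stood at 523 and 650 against 677 and 731 CPM, and Atp5b, the catalytic subunit of ATP synthase, at 1508.4 and 1675.8 against 1770.5 and 2010.1 CPM. In all 4 genes the groups were apart, and none passed over all genes. Mitochondrial ribosomal proteins (31 of 73 above 0, median -0.02) did not share the shift. Cytosolic ribosomal proteins were above 0 in 67 of 80, but with medians of 0.17 in pair 1 and -0.05 in pair 2.

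**Figure D4:**
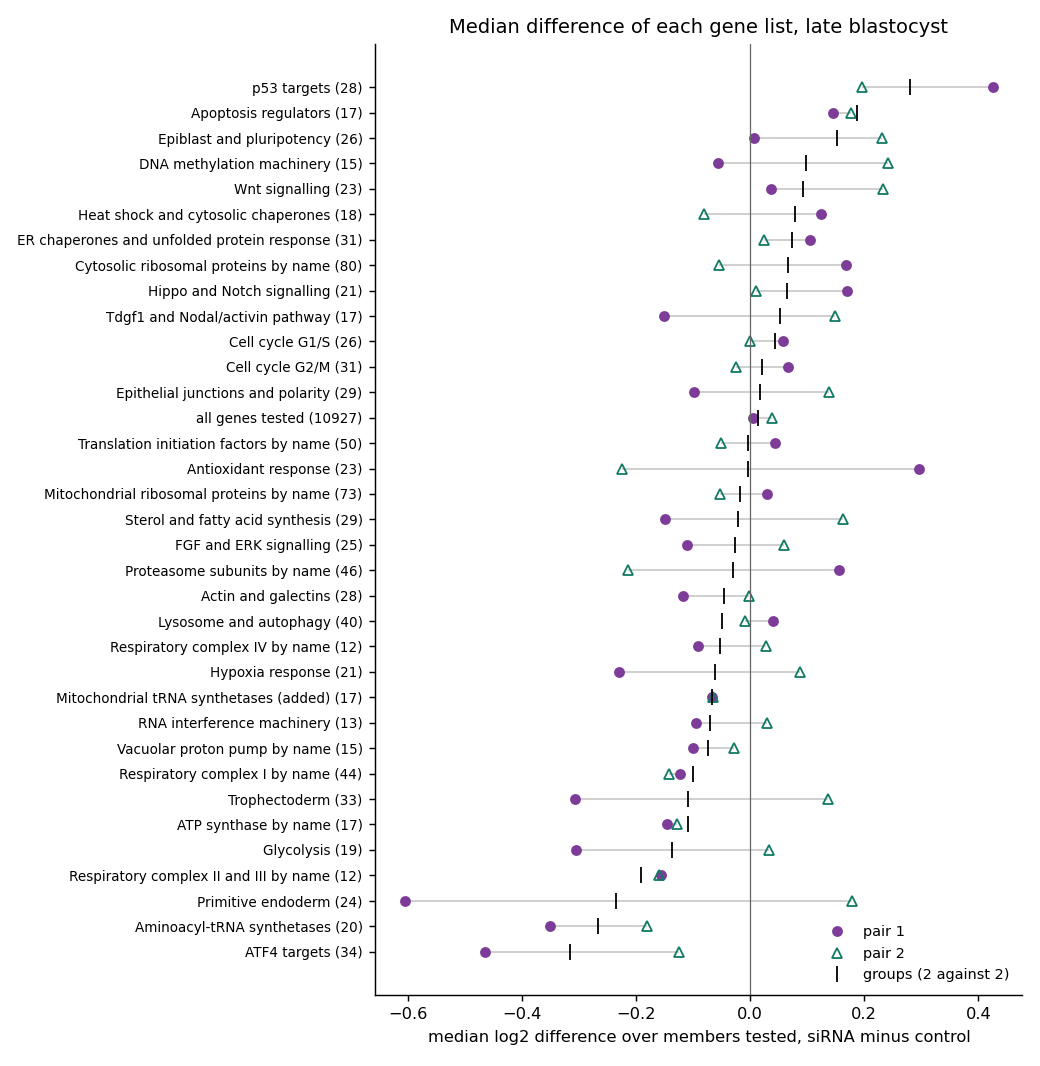
Median log2 difference of each gene list with at least 10 members tested (number tested in brackets), in pair 1 (filled circles), pair 2 (open triangles) and between groups (bars). ATF4 targets, tRNA synthetases and the respiratory complexes I to III lie below 0 in both pairs, p53 targets above 0 in both, and the primitive endoderm and trophectoderm lists lie on opposite sides of 0.

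Lineage genes gave a mixed picture. In whole embryos, fewer cells of a type and less RNA per cell cannot be told apart. Of the primitive endoderm list 24 of 29 were tested and 18 were below 0. Among them 8 lay wholly lower (14.2% of all genes did) and 2 wholly higher (17.5%), and the list had a median of -0.24. That median was -0.61 in pair 1 and 0.18 in pair 2. Without Tdgf1 siRNA replicate 1 it was 0.07, with 9 of 24 below 0. The direction of the list thus rested on 1 library.

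The transcription factors of primitive endoderm differed in direction. Gata6, the earliest of them, stood higher with Tdgf1 siRNA, at 284 and 245 against 217 and 175 CPM (log2 change 0.43, SE 0.164). Sox17, a later one, stood lower, at 23.6 and 40.5 against 45.3 and 44.6 CPM. Gata4 (7.86 and 26.4 against 23.5 and 19.7 CPM) and Sox7 (0.436 and 8.03 against 6.33 and 4.24 CPM), the latest to appear, were low in siRNA library 1 alone. The receptor Pdgfra stood lower in both pairs (51.1 and 49.3 against 65.2 and 60.5 CPM). Genes of the basement membrane that these cells lay down gave 1 clear separation, Lamb1, a laminin chain (86.1 and 124 against 150 and 161 CPM). Its partner Lama1 (27.3 and 75.7 against 74.9 and 54.8 CPM) and the collagens Col4a1 and Col4a2 overlapped and were lowest in siRNA library 1. Srgn, a proteoglycan core protein, stood at 5.06 and 12.6 against 17.9 and 16.2 CPM. Endocytic genes of primitive endoderm split: Dab2 lay wholly lower (607 and 714 against 753 and 807 CPM) and its receptor partner Lrp2 wholly higher (1167.3 and 944.2 against 866.1 and 902.6 CPM).

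Epiblast and pluripotency genes leaned higher. Of 26 tested (31 listed), 20 were above 0, 9 lay wholly higher (17.5% of all genes did) and 3 wholly lower (14.2%). The median was 0.15, with 0.01 in pair 1 and 0.23 in pair 2. Without control replicate 2 the median was 0.07. The list leaned the same way at early blastocyst, with 19 of 26 above 0 and a median of 0.13 (0.18 and 0.11 in the pairs). At morula its median was -0.01. Nanog, a core factor of the epiblast, stood at 115 and 95.9 against 85.1 and 80.7 CPM. Pou5f1, the factor OCT4, stood at 148 and 147 against 108 and 133 CPM. Esrrb, a nuclear receptor of naive pluripotency, stood at 11.3 and 10.7 against 6.78 and 5.94 CPM. In all 3 the groups did not overlap. Utf1 (116 and 155 against 105 and 99.6 CPM) and Spic (70.0 and 38.9 against 38.1 and 29.9 CPM) lay wholly higher too. The log2 change of Utf1 was 0.38, and 0.17 without Tdgf1 siRNA replicate 2. That of Spic was 0.58, and 0.19 without Tdgf1 siRNA replicate 1. Sox2 (10.6 and 14.8 against 11.8 and 6.17 CPM), Klf4 and Fgf4 overlapped. The 3 wholly lower genes were Tdgf1, Gdf3 and Zfp42 (250 and 259 against 260 and 280 CPM). None passed over all genes.

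Of 33 trophectoderm genes tested, 22 were below 0, 6 lay wholly lower and 7 wholly higher. The wholly lower and wholly higher shares were not far from the 14.2% and 17.5% of all genes. Medians were -0.31 in pair 1 and 0.14 in pair 2. Without Tdgf1 siRNA replicate 1, 12 were below 0. The keratins Krt18 (2718.1 and 2938.9 against 3504.0 and 4198.2 CPM) and Krt8 (1757.3 and 2117.0 against 2232.4 and 2585.1 CPM), filaments of this epithelium, lay wholly lower, as did Lgals3, a galectin (53.5 and 67.5 against 118 and 72.9 CPM). The transcription factors Cdx2 (111 and 143 against 108 and 91.6 CPM) and Tfap2c (116 and 109 against 99.8 and 80.3 CPM) lay wholly higher. Gata3 (425 and 425 against 428 and 399 CPM) and Eomes (159 and 211 against 204 and 190 CPM) overlapped.

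**Figure D5:**
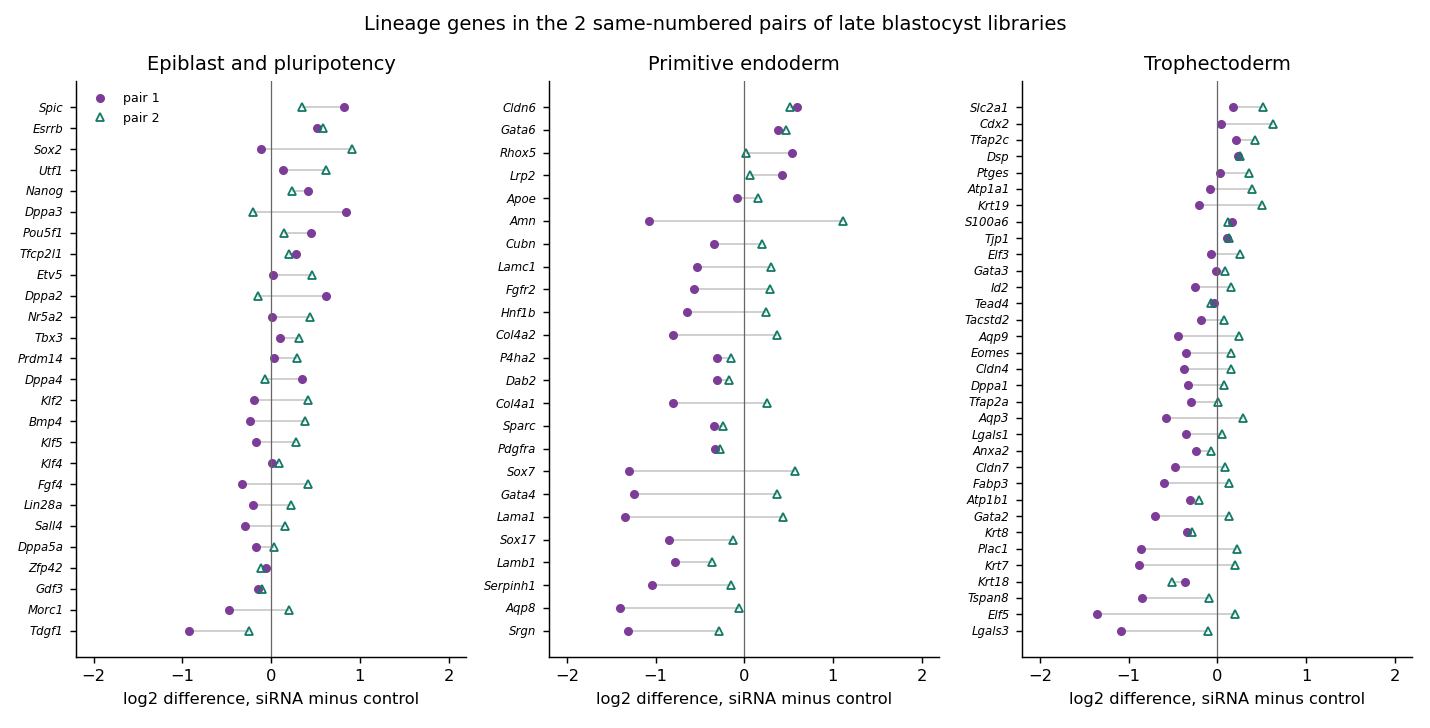
Log2 difference of Tdgf1 siRNA minus control in pair 1 (filled circles) and pair 2 (open triangles) for the members of 3 lineage lists, ordered by the difference between groups. Most primitive endoderm genes lie further left in pair 1 than in pair 2, while Gata6 lies at 0.38 and 0.47.

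Signalling lists outside the Nodal pathway had medians between -0.03 and 0.09, against 0.01 for all genes. In the Wnt list 17 of 23 were above 0, where 52.9% of all genes were, with a median of 0.09. Higher in both pairs were 13 of them, against 27.2% of all genes, but 2 members that act on the ligand side stood lower. Wls, the carrier that brings Wnt proteins to the cell surface (chromosome 3, 159839672 to 159938664, plus strand), stood at 21.9 and 31.0 against 58.6 and 52.99 CPM (log2 change -0.999, SE 0.237, limma unadjusted p = 0.000910). Dkk1, a secreted Wnt inhibitor, stood at 17.6 and 28.7 against 30.6 and 39.1 CPM. Porcn, which acylates Wnt proteins, stood at 7.16 and 6.62 against 3.58 and 4.86 CPM. It was among the 8 of 23 that lay wholly higher, where 17.5% of all genes did. In the FGF and ERK list 12 of 25 were above 0 with a median of -0.03, and the ERK targets Dusp6, Spry2 and Spry4 overlapped. Of the Hippo and Notch list 14 of 21 were above 0 with a median of 0.07. Nf2, an activator of Hippo signalling (34.3 and 35.0 against 25.4 and 24.3 CPM), and Yap1, its effector (55.9 and 52.6 against 45.9 and 37.7 CPM), lay wholly higher. The BMP list gave 4 of 8 on either side of 0.

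Chaperones of the endoplasmic reticulum were above 0 in 21 of 31, with a median of 0.07. In that list 7 lay wholly higher (17.5% of all genes did), among them Syvn1, Ern1 and Derl3. The 3 wholly lower (14.2% of all genes) were Herpud1, given above, Pdia4 and Derl1. The chaperone Hspa5 overlapped (545 and 469 against 448 and 555 CPM). Glycolysis genes were below 0 in 14 of 19, with medians of -0.31 in pair 1 and 0.03 in pair 2, and Pgm2 (19.1 and 21.6 against 31.1 and 47.9 CPM), Pgm1 and Pgk1 lay wholly lower. Of 21 genes of the hypoxia response 9 were above 0, with a median of -0.06. In 3 the siRNA libraries lay wholly higher (Epas1, Slc2a1 and Arnt) and in 3 wholly lower (Vegfa, Bnip3 and P4ha2), shares close to those of all genes. Epas1, the factor HIF-2 alpha (chromosome 17, 86753700 to 86833410, plus strand), stood at 191 and 110 against 102 and 53.8 CPM, higher by 0.88 and 0.99 in the 2 pairs on the log2 scale. Its siRNA library 2 (110 CPM) lay just above control 1 (102 CPM), so the groups were narrowly apart while both pairs differed by a similar amount. Lysosome and autophagy genes were split, 19 above and 21 below 0. The lipid transfer protein Atg2a (94.8 and 93.1 against 64.0 and 51.5 CPM), its relative Atg2b (54.6 and 55.4 against 44.3 and 36.8 CPM) and Map1lc3a (112 and 127 against 81.9 and 90.3 CPM) lay wholly higher, while the autophagy regulator Becn1 lay wholly lower.

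Genes of sterol and fatty acid synthesis followed the replicate number in place of the siRNA. Their summed level was 1763 CPM in siRNA library 1 and 2009 CPM in control 1, against 4039 CPM in siRNA library 2 and 3724 CPM in control 2. Sqle, a rate-setting enzyme of cholesterol synthesis, stood at 33.9 and 152 CPM with Tdgf1 siRNA and at 61.6 and 133 CPM in controls. None of the 29 members separated the treatments. The labels do not say what the numbers stand for, and their part in other results was not tested beyond the blocked fit.

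Outside the lists, the genes of smallest p were named by rule. Cd200, a surface glycoprotein that restrains myeloid cells (chromosome 16, 45382135 to 45409053, minus strand), stood at 0.786 and 2.65 CPM with Tdgf1 siRNA against 7.79 and 10.2 CPM in controls (log2 change -1.26, SE 0.211). It was at most 0.496 CPM in any morula or early blastocyst library, so it is a gene of the late blastocyst here. Its spread was estimated over all 12 libraries, including those earlier ones near 0. The SE and p-values of Cd200 may therefore be too small. Hopx, an atypical homeodomain protein, stood at 3.055 and 7.41 against 11.7 and 13.9 CPM, and Zdhhc15, a palmitoyltransferase, at 4.63 and 4.24 against 12.1 and 10.3 CPM. In the higher direction Pmm1, a phosphomannomutase (chromosome 15, 81951108 to 81960930, minus strand), stood at 435 and 270 against 175 and 186 CPM. Dynlt1a, a dynein light chain, stood at 24.4 and 15.2 against 5.04 and 2.70 CPM. It has near-identical copies, and the sources used here do not say how reads were divided among them. Eng, the TGF-beta co-receptor endoglin, stood at 13.8 and 8.03 against 4.68 and 3.86 CPM. Grhl3, an epithelial transcription factor, stood at 11.2 and 8.91 against 4.31 and 5.01 CPM. The zinc finger gene Zfp143 stood at 45.3 and 38.1 against 23.5 and 25.3 CPM, and Zfp667 at 21.4 and 15.1 against 6.69 and 10.3 CPM. In each of these genes the groups did not overlap and both pairs had the same sign, which the rule required. At morula and early blastocyst the log2 changes of these 6 higher genes lay between -0.40 and 0.28, with 0.09 and 0.11 for Pmm1. Those of Hopx were -0.01 and -0.02, those of Zdhhc15 0.16 and -0.15, and those of Cd200 0.09 and -0.05.

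Markers of other cells were scarce in all 4 libraries. Of 16 cumulus and granulosa cell genes 2 were tested, with summed levels of 78.5 to 102 CPM for Tdgf1 siRNA and 96.1 to 101 CPM for controls, nearly all from Serpine2. Of 20 genes of blood and the reproductive tract 4 were tested, with 60.5 to 64.9 CPM against 49.6 to 65.9 CPM. Among these Cd68, a lysosomal protein abundant in macrophages, lay wholly higher (16.4 and 11.9 against 6.33 and 9.72 CPM). Placental and giant cell genes summed to 139 and 247 CPM against 257 and 173 CPM, mostly from Plac1, which blastocyst trophectoderm also expresses. All 13 genes of the mitochondrial genome had a value of 0 throughout.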

How the data were processed

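RNA-seq was made from mouse embryos with the SMARTer Ultra Low Input and NEBNext Ultra DNA kits, per the labels' protocols, and strand is not stated. The submitters' processing notes list HISAT2 2.1.0, Cufflinks, HTSeq, edgeR and mm10. The authors deposited 1 table headed RPKM, but its values are CPM divided by 3.582, since every column consists of whole multiples of 1 step (100.0% of values whole within 0.01 reads). Levels here are CPM, and the whole reads were recovered from the steps. Further mapping and counting settings were not found in these sources.

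The members and gene lists were chosen with earlier results of these data known. limma 3.58.1 in R 4.3.3 (lmFit, eBayes with trend) was run on log2(value + 1). The 1 added is in units of the table, equal to 3.58 CPM, and understates changes of low genes. All 12 libraries entered with 6 group means, for the 10927 genes averaging 1 unit or more in late blastocysts, which held 99.2% of their reads. P-values were adjusted by Benjamini-Hochberg over all genes (threshold 0.05). Pair differences are on the same log2 scale. Lists are described by counts and medians with no set test. "Wholly lower" or "wholly higher" means that both siRNA libraries lay beyond both controls. Alternatives were edgeR 4.0.16 and DESeq2 1.42.0 on recovered reads, other pseudocounts, filters and scalings, a block for replicate number and leaving out each library. The fitting code was tested on simulated data.

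To check the pairing, deviations from group means were correlated between same-numbered libraries. The values were 0.452 (morula), 0.574 (early blastocyst) and 0.1005 (late blastocyst), each above 0.1, and on this ground alone replicate numbers were treated as pairs. Libraries of 1 group differed by more than read sampling (chi-square per gene 15.4 to 37.0) and were kept apart.

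Named genes were Tdgf1, per direction the 10 of smallest p with a mean of at least 5 CPM, groups that do not overlap and pairs of 1 sign (Gm-numbered, Rik and -ps names left out), up to 4 non-overlapping members a list, genes past the threshold in any fit of all libraries, and lineage regulators. Other members were named after their values were seen. Gene coordinates are of GENCODE M21 (95.0% of genes tested matched) and promoters of RefSeq. Plots were made with Python 3.11.15 and matplotlib 3.10.9.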

Additional observations from a re-analysis of the deposited data

Results flagged for a closer look

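A few lists moved one way in both late blastocyst pairs and the other way in both pairs of an earlier stage. None of these differences between stages was tested. The p53 targets had a median log2 change of 0.28 at late blastocyst (0.43 and 0.20 in the pairs) and of -0.18 at early blastocyst (-0.08 and -0.21). At morula their median was 0.15, with 22 of 28 above 0, and the pairs differed (-0.05 and 0.45). Chaperones of the endoplasmic reticulum stood at 0.0739 at late blastocyst, against -0.15 at morula and -0.14 at early blastocyst. Genes of the G1 and S phases stood at 0.0434 against -0.02 at morula, where the second late blastocyst pair was at 0.00. Actin and galectin genes stood at -0.0462 against 0.07 at morula, with -0.12 and -0.00 in the late blastocyst pairs.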

How the results depend on the processing

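The count of genes passing at late blastocyst was 0 with limma and stayed 0 with other pseudocounts, a filter at 5, quantile or TMM scaling, the 4 libraries alone and edgeR. It was 12 with no filter (none above 5.59 CPM in any library), 4 with the replicate block, 1 with DESeq2, and 0 to 1 when each library was left out. The 1 gene, without Tdgf1 siRNA replicate 2, was Nupr1 (limma adjusted p = 0.0103). The replicate block changed no other call, and edgeR with the block gave 0. The test between stages gave 0 genes in every fit and could not be fitted with the 4 late blastocyst libraries alone. Leaving out each library, the members below 0 numbered 5 to 10 (epiblast), 9 to 19 (primitive endoderm), 12 to 24 (trophectoderm), 3 to 7 (p53) and 21 to 31 (ATF4), the low end for ATF4, primitive endoderm and trophectoderm being without Tdgf1 siRNA replicate 1. With a filter at 5, 2 of 17 p53 targets were below 0, from fewer genes tested. Leaving out each library, the log2 change of Gata4 ranged from -1.13 to 0.26 and that of Eomes from -0.30 to 0.10, positive without Tdgf1 siRNA replicate 1, and that of Gata3 from -0.011 without control replicate 2 to 0.089. The cause was not tested. Of the single genes and other lists, 32 values moved by more than their spread. No setting moved the median of all genes by over 0.1. With 2 libraries a group, the replicates and not the read depth limit these comparisons for all but the lowest genes.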

Other observations

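Some further genes whose groups did not overlap belong to no comparison above and were picked after their values were seen. Lgals9, a galectin, stood at 19.4 and 23.5 CPM with Tdgf1 siRNA against 11 and 10.6 CPM in controls. Anxa3, an annexin, stood at 112 and 116 against 165 and 176 CPM. Hspb1, a small heat shock protein, stood at 94.8 and 96.5 against 52.5 and 65.2 CPM at late blastocyst, with log2 changes of 0.42 at morula and -0.69 at early blastocyst. Of the interferon list 8 of 28 genes were tested, and Irf9 (11.9 and 12 against 8.71 and 4.94 CPM) and Oas1a (7.07 and 6.27 against 4.31 and 3.78 CPM) lay wholly higher. The median of that list was -0.02. None of these genes passed limma over all genes.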
